A study of Mus musculus with 22 samples.

Results

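The transcripts described here encode 10 proteins of the cartilage matrix that are not fibrillar collagens: aggrecan (Acan), hyaluronan and proteoglycan link protein (Hapln1), the 4 matrilins (Matn1, Matn2, Matn3 and Matn4), cartilage oligomeric matrix protein (Comp), epiphycan (Epyc), chondroadherin (Chad) and the unique cartilage matrix-associated protein (Ucma). They were looked up by gene symbol in the deposited count tables of 14 chondrocyte cultures (34866 genes listed) and 8 cartilage samples (23911 genes listed). All 10 were found in each table, and all 10 passed the filter on low counts in every comparison.

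The study asked how loss of Dnmt1, which encodes a DNA methyltransferase, changes gene expression in mouse cartilage cells. Control samples carried the Dnmt1 flox allele; cKO samples carried Prrx1-Cre and Dnmt1 flox/flox, so that the gene is deleted where Prrx1 drives Cre recombinase, chiefly limb bud mesenchyme and its descendants, which include limb chondrocytes. The cultures were primary chondrocytes isolated from the knee cartilage of newborn mice aged 3 to 5 days: 3 controls and 3 cKO samples were left untreated (day 0), and 4 of each genotype were sampled following 3 days with bone morphogenetic protein 2 (BMP2, 100 ng/µl in the labels), a growth factor that drives cartilage formation and maturation (day 3). The tissue was cartilage of 5-day-old mice, freed of connective tissue with collagenase, with 4 control and 4 cKO samples; in each genotype replicates 1 and 2 were male and 3 and 4 female. The cultures had no sex label. Their titles call the replicates biological, but no label ties a sample to a single animal. The p-values therefore measure the spread between these samples, which may in part be technical.

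Cartilage resists compression because aggrecan, a core protein decorated with very many chondroitin sulfate and keratan sulfate chains, draws water into a network of collagen II fibrils. Aggrecan binds to hyaluronan, and link protein locks that bond. Matrilins are oligomeric adaptors with von Willebrand factor A domains that join collagen fibrils, aggrecan and other matrix molecules; Matn1 and Matn3 are largely confined to skeletal tissue, while Matn2 and Matn4 occur in many tissues. Comp is the thrombospondin of cartilage and binds collagens, Epyc and Chad carry leucine-rich repeats, and Ucma is a small secreted protein with gamma-carboxylated glutamate residues. Dnmt1 copies methylation of CG dinucleotides to the new DNA strand at each cell division, so the CG content of the promoters is shown first.

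The RefSeq promoter table for GRCm38.p6 held windows of 300 bases (250 before and 50 after a transcription start) for 8 of the 10 genes. The 4 stretches below, each the 250 bases before the start on the plus strand, are shown as examples of higher and lower CG content among genes called lower in cKO cultures at both days; the lowest contents, those of Hapln1 and Epyc, are given as numbers only. Capitals mark every CG.
Acan, chr7:79052976-79053225: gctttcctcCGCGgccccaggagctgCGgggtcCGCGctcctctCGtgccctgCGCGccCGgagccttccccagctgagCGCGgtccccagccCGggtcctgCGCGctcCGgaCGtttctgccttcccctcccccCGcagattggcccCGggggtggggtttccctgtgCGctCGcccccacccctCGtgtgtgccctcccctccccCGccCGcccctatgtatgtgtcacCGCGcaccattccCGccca
Matn1, chr4:130944135-130944384: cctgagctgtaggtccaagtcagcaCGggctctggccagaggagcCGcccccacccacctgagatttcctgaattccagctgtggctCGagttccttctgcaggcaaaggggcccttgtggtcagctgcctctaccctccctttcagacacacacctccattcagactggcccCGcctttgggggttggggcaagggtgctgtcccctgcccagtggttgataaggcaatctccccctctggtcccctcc
Ucma, chr2:4975872-4976121: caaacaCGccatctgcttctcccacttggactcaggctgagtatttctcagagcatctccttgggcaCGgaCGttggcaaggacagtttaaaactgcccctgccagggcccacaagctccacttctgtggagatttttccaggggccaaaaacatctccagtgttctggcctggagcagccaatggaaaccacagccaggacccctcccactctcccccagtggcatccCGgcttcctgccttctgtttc
Chad, chr11:94564797-94565046: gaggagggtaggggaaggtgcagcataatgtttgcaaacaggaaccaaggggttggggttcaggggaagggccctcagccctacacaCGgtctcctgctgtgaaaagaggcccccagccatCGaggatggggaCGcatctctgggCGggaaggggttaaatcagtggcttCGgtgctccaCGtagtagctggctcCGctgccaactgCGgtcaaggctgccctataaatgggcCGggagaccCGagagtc
Over the whole window Acan had 31 CG dinucleotides, a number that 90.5% of the 32851 windows in the table did not exceed. Matn3 had 15, Chad 13, Matn1 6, Ucma 4 and Hapln1 3, against a median of 7 and quartiles of 3 and 20 over all windows. Matn4, with 2 annotated starts, had 19 and 9, and Epyc, also with 2, had 2 and 1. The 8 members with a window, all called lower in cKO at day 0, spanned 1 to 31 CG dinucleotides. Matn2 and Comp had no window. Whether CG content bears on the members' levels was not tested. On either strand, ACAAT, a core of the sites bound by SOX proteins, occurred in windows of 2 of the 8 genes (Hapln1 and Epyc) and in 31.0% of all windows; ACAAAG, another such core that shares ACAA with it, occurred in 1 (Epyc) and in 18.7%. TATAAA occurred in 1 of the 8, Chad, at position -28 from the start, and in 13.6% of all windows. These matches are letters in a window and describe no binding.

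The targeted gene was lower in every cKO library than in every control of its set. In CPM, a gene's counts relative to the library total after scaling by edgeR's TMM factors, Dnmt1 ranged over 147 to 159 in day 0 controls and 25.7 to 31.3 in day 0 cKO libraries. The ranges were 64.9 to 83.5 against 11.6 to 36.4 at day 3 and 34.5 to 48.6 against 11.8 to 14.3 in cartilage (log2 fold changes -2.44, -1.41 and -1.66, edgeR adjusted p = 1.6e-08, 0.0062 and 6.3e-05). These cartilage cKO values rest on 14 to 16 counts per library. In the estimated counts also deposited for cartilage the gap was smaller, 44.1 to 62.5 CPM in control against 26.5 to 33.4 in cKO. The size of the fall in tissue thus depends on the counts used. A library held between 41749360 and 51741520 counts at day 0, between 14434211 and 18918732 at day 3 and between 1100198 and 1888896 in cartilage. None of the 7 chondrocyte markers was at or under 3 counts throughout a group, and their levels summed to 118311 to 125249 CPM in the day 0 controls against 42749 to 52205 in the cKO libraries. At day 3 the sums were 83019 to 99153 and 836 to 14985, and in cartilage 59795 to 90866 and 27181 to 57023. Such sums are carried by the most abundant genes. By edgeR 7 of the 7 were called lower at day 0, 6 at day 3 and 0 in cartilage. Over all genes these shares were 31.6%, 22.6% and 3.04%. In cartilage 4 were lower at an unadjusted p under 0.05, and DESeq2 called 3 lower. One library stood apart: the fourth cKO culture at day 3, with a marker sum of 836 against 10358 to 14985 in the other 3. The members' day 3 effects and changes are therefore given with and without it, and those of other named genes without it in 1 place. Markers of other cell types moved with genotype as well. Those of muscle summed to 12.4 to 13.9 CPM in control and 70.9 to 75.8 in cKO at day 0, with Myod1 at 0 in control and Myl1 at 0 in cKO. The sums were 1.897 to 2.35 and 164 to 2129 at day 3, when all 8 muscle markers rose, and 11.9 to 16.5 and 58.0 to 90.1 in cartilage. The low value of 164 was again the fourth cKO library, the other 3 being at 1262 to 2129. Bone marker sums were 1528 to 2711 CPM in control and 1135 to 1458 in cKO at day 0 (1 of 4 tested called higher, 1 lower), but 3773 to 5187 and 7016 to 9240 at day 3, when 4 of 5 (Bglap, Ibsp, Sp7 and Col1a1) rose. Adipocyte markers summed to 0.863 to 1.096 and 2.26 to 4.31 at day 0 and to 1.39 to 2.88 and 27.3 to 42.0 at day 3, with Adipoq and Cfd at 0 in the day 3 controls; Fabp4, the 1 of 4 tested at day 3, rose (4.05). For fibroblast and tendon the sums were 2678 to 4200 and 2051 to 2240 at day 0, with 3 of 7 called higher and 3 lower, and 6398 to 8136 and 8883 to 10369 at day 3, with 2 of 6 each way. Col1a1 is in this list and in that of bone, so their sums are not independent. Hypertrophic marker sums were 1369 to 1395 and 760 to 825 at day 0, when 4 of 6 fell, and went the other way at day 3, at 332 to 627 and 1010 to 3167. There Col10a1 (3.28), Alpl (2.87) and Mmp13 (2.71) rose and Ihh (-2.88), Panx3 (-2.37) and Pth1r (-0.42) fell. The Col10a1 call was lost without any 1 control or the fourth cKO library (0.82 without the latter, adjusted p = 0.080), and that of Pth1r without control replicate 1 or 4 or cKO replicate 1 or 3 (-0.51 to -0.33 over all 8 omissions, adjusted p up to 0.083). Their part in the results below was not tested. In bulk RNA, fewer cells of a type and less RNA per cell cannot be told apart.

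Per kilobase of exon, Matn1 was the highest of the 10 in untreated control cultures, at 1595 ± 75.8 CPM per kb (SD, n = 3). Acan followed at 1388 ± 51.5, then Comp at 761 ± 24.3, Ucma at 576 ± 44.4, Hapln1 at 458 ± 9.63, Epyc at 203 ± 10.7 and Matn3 at 184 ± 4.86. Chad (19.95 ± 2.17), Matn4 (10.3 ± 0.268) and Matn2 (4.498 ± 0.303 CPM per kb) formed the low end, and no 2 neighbours in this order overlapped. In day 0 cKO cultures Acan led at 527 ± 59.7, ahead of Comp at 234 ± 31.3, and Matn1 fell behind Hapln1 to 117 ± 43.5, though its libraries overlapped those of Hapln1 (129 ± 11.8), as Hapln1's did those of Ucma (143 ± 34.6). At day 3 the top 3 controls, Matn1 (1172 ± 488), Comp (1009 ± 78.5) and Acan (998 ± 209 CPM per kb, n = 4), overlapped in turn. In day 3 cKO cultures Comp (196 ± 86.4) and Acan (145 ± 87.3) led, and Matn1 at 16.7 ± 13.6 was level with Matn2 at 15.5 ± 2.49. Together the 10 genes took 1.91 to 1.99% of all counts in control and 0.569 to 0.714% in cKO at day 0, and 1.13 to 1.78% and 0.0444 to 0.301% at day 3. In cartilage they took 1.15 to 1.33% and 0.605 to 1.08%.

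In untreated cultures 9 of the 10 transcripts fell in cKO, Matn1 and Matn4 by the most and Chad by the least. None rose by edgeR or DESeq2 (1, Matn2, was higher at an unadjusted p under 0.05). Of the 15530 genes tested, 31.6% were called lower at an edgeR adjusted p under 0.05, 33% higher and 64.5% in either direction, so being called was in itself common. The median log2 fold change was -1.77 over the members and 0.010 over all genes tested. In all 9 the control and cKO libraries did not overlap, as was so for 34.4% of all genes in the lower direction and 35.9% in the higher.

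Aggrecan and its link protein fell together. Acan stood at 10699, 9947 and 10461 CPM in control and at 3557, 4426 and 3819 in cKO. The lowest control was above the highest cKO library by a wide margin, and the fall was 2.64-fold (log2 fold change -1.40, SE 0.100, edgeR adjusted p = 2.8e-06). Hapln1 stood at 2761, 2648 and 2695 CPM in control and at 721, 841 and 721 in cKO, 3.55-fold lower (log2 fold change -1.83, SE 0.070, edgeR adjusted p = 7.3e-08). Its ratio to Acan within a library, per kb, spanned 0.326 to 0.337 in the controls against 0.239 to 0.256 in the cKO libraries.

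Among the matrilins, 3 of 4 fell. Matn1, the matrilin typical of maturing growth plate cartilage, was at 3315, 3237 and 3022 CPM in control and at 164, 332 and 208 in cKO. Each cKO library held a small part of the control level, with the second cKO library the highest, and the fall was 13.6-fold (log2 fold change -3.76, SE 0.231, edgeR adjusted p = 1.1e-06). Relative to Acan per kb, Matn1 was at 1.08 to 1.21 in control and 0.172 to 0.280 in cKO. Matn3, its close relative and partner in mixed oligomers, was at 554, 542 and 571 CPM against 92.1, 129 and 82.5, a 5.49-fold fall (log2 fold change -2.46, SE 0.141, edgeR adjusted p = 8.3e-07). Matn4 was a low-level transcript at 54.28, 54.28 and 51.9 CPM in control and 8.17, 8.82 and 6.46 in cKO, a 6.86-fold fall (log2 fold change -2.78, SE 0.097, edgeR adjusted p = 4.5e-08). Matn4 overlaps Rbpjl on the other strand; Rbpjl was at a mean of 2.80 CPM in control and 0.511 in cKO (log2 fold change -2.45), and whether the counting used strand is not given in the sources used here. Matn2 went the other way in size without passing the test: 30.3, 26.6 and 27.6 CPM in control and 34.0, 32.3 and 29.1 in cKO. The lowest cKO library lay inside the control range (log2 fold change 0.17, SE 0.070, edgeR adjusted p = 0.054); without the first control library it was 0.22 and without the third cKO library 0.24, both past the threshold.

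The other 4 members also fell at day 0. Comp ran from 2176 to 2314 CPM in control and from 617 to 797 in cKO (3.25-fold lower), and Epyc from 491 to 546 and from 144 to 189 (3.25-fold lower). Ucma, a marker of early chondrocytes, ran from 482 to 554 CPM in control and from 108 to 162 in cKO (4.01-fold lower). These 3 had edgeR adjusted p-values from 4.8e-07 to 2.8e-06. Chad, which binds collagen II and cell-surface integrins, was at 34.5, 29.5 and 36.5 CPM in control and at 17.1, 17.5 and 28.2 in cKO. The third cKO library came close to the lowest control, and the fall was 1.60-fold (log2 fold change -0.67, SE 0.177, edgeR adjusted p = 0.0083), or -0.96 on the log2 scale without that library. In 1 fit of all 14 cultures, which share 1 estimate of the spread, the day 0 calls of Acan, Epyc and Ucma were lost at the same sizes (edgeR adjusted p = 0.063, 0.071 and 0.053).

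**Figure D1:**
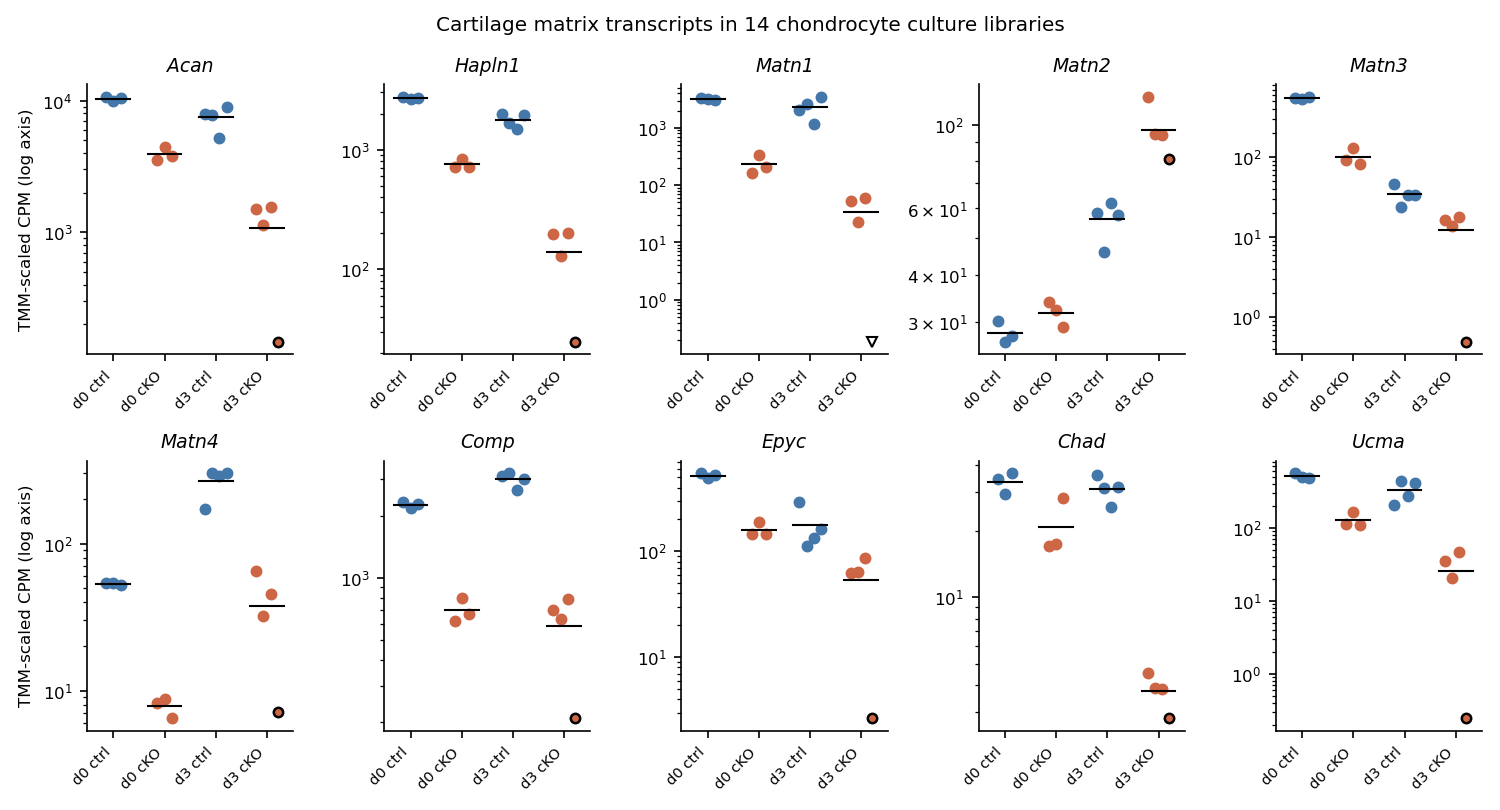
TMM-scaled CPM (log axis) of the 10 transcripts in the 14 culture libraries, 1 panel per gene, with control in blue, cKO in orange, group means as lines and the fourth day 3 cKO library outlined in black. Its Matn1 count of 0 is drawn as an open triangle at the level of 3 counts, 0.184 CPM; in each panel but that of Matn2, every cKO library lies below every control library of the same day.

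After 3 days with BMP2, 7 of the 10 transcripts fell in cKO and 1, Matn2, rose; Matn3 and Epyc were lower in every cKO library without passing the test. Of the 13924 genes tested, 22.6% were called lower, 25.5% higher and 48.1% in either direction. The members' median log2 fold change was -2.80, against 0.011 over all genes tested. Control and cKO libraries did not overlap for any of the 10 members, 9 lower and 1 higher, as for 22.7% and 25.2% of all genes in these directions. The fourth cKO library was the lowest of its group for all 10. Without it, 9 members were called lower and 1 higher. The shares of all genes above are of the fit with that library, and those of the fit without it are not given here.

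Acan was at 7914, 7765, 5238 and 8897 CPM in control and at 1493, 1136, 1562 and 147 in cKO. All 4 cKO libraries were far below the lowest control, the last by the most, and the fall was 6.87-fold (log2 fold change -2.78, SE 0.619, edgeR adjusted p = 0.0062; without that library -2.42, adjusted p = 1.4e-05). Hapln1 was at 1988, 1671, 1475 and 1948 CPM against 196, 131, 203 and 24.8, a 12.8-fold fall (log2 fold change -3.67, SE 0.570, edgeR adjusted p = 0.0010; without the fourth cKO library -3.33, adjusted p = 1.1e-06). Its ratio to Acan per kb spanned 0.272 to 0.356 in the controls and 0.146 to 0.214 in the cKO libraries, again without overlap.

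Matn1 had the largest fold change of the 10 in these cultures. It was at 2074, 2655, 1168 and 3487 CPM in control and at 52.1, 22.8, 58.8 and 0 in cKO. In the fourth cKO library no count was recorded, which allows at most 0.184 CPM; the controls themselves were spread widely. The fitted log2 fold change was -6.13 (SE 1.22, edgeR adjusted p = 0.0036), and -5.72 (adjusted p = 1.4e-05) without that library. Matn4 was at 171, 300.4, 286 and 301 CPM in control and at 64.8, 32.3, 45.3 and 7.11 in cKO, 7.07-fold lower (log2 fold change -2.82, SE 0.556, edgeR adjusted p = 0.0034; without the fourth cKO library -2.49, adjusted p = 6.4e-05). Rbpjl, on the other strand, moved with it again (11.4 and 1.63 CPM, log2 fold change -2.80). Matn3 was low in both genotypes at this time: 45.9, 23.9, 34.1 and 33.5 CPM in control and 16.3, 13.9, 18.0 and 0.490 in cKO. Every cKO library was below every control, yet the test was not passed (log2 fold change -1.49, SE 0.684, edgeR adjusted p = 0.10); without the fourth cKO library it was (-1.09, adjusted p = 0.0013).

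Matn2 alone among the members rose. It was at 58.4, 46.1, 62.1 and 57.8 CPM in control and at 118, 94.6, 93.8 and 81.0 in cKO. The fourth cKO library, lowest for the cartilage matrilins, was here above every control, and the rise was 1.73-fold (log2 fold change 0.79, SE 0.132, edgeR adjusted p = 0.0015; without that library 0.86, adjusted p = 2.4e-04).

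Chad was the member with the smallest SE relative to its change at day 3. It was at 35.8, 31.4, 25.7 and 31.6 CPM in control and at 4.54, 3.89, 3.83 and 2.82 in cKO, from 46 to 78 counts per cKO library. All 4 cKO libraries lay close together, the fourth included, and the fall was 8.23-fold (log2 fold change -3.04, SE 0.164, edgeR adjusted p = 6.5e-06; without the fourth -2.93, adjusted p = 3.3e-07). Acsf2, which overlaps Chad on the other strand, was at 25.1 and 17.7 CPM (log2 fold change -0.50). Comp ran from 2669 to 3205 CPM in control and from 208 to 785 in cKO (5.15-fold lower, edgeR adjusted p = 9.9e-04), and Ucma from 203 to 438 and from 0.245 to 46.4 (12.8-fold lower, adjusted p = 0.011); without the fourth cKO library their log2 fold changes went from -2.36 to -2.09 (adjusted p = 8.7e-07) and from -3.68 to -3.28 (adjusted p = 5.7e-05). Epyc was at 294, 112, 135 and 164 CPM in control and at 61.9, 63.7, 86.9 and 2.63 in cKO. Its groups did not overlap, and the test was not passed (log2 fold change -1.71, SE 0.763, edgeR adjusted p = 0.096; without the fourth cKO library -1.32, adjusted p = 0.0051). Both Epyc and Matn3 also passed with all libraries kept when the 14 cultures were fitted together (edgeR adjusted p = 0.031 and 0.029).

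**Figure D2:**
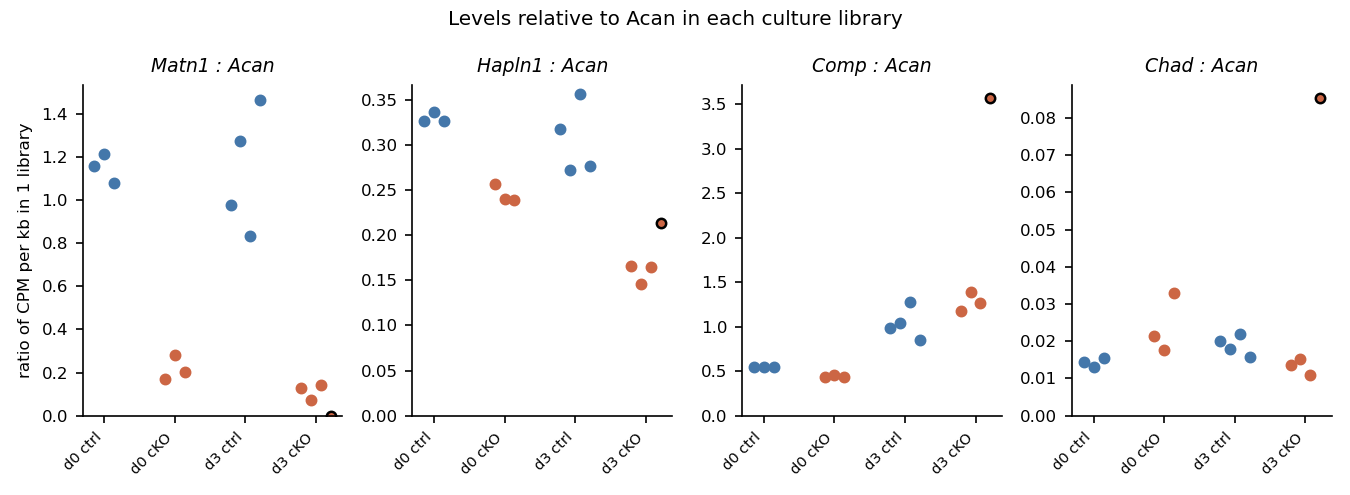
Ratio of Matn1, Hapln1, Comp and Chad to Acan within each culture library, from CPM per kb of exon, with control in blue, cKO in orange and the fourth day 3 cKO library outlined. Matn1 was at 0.832 to 1.46 times Acan in day 3 controls and at 0 to 0.141 in cKO, while Comp relative to Acan was no lower in day 3 cKO (1.18 to 3.57) than in control (0.846 to 1.28).

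The ratio to Acan went different ways among the members. Relative to Acan per kb, the Comp ratio had a median of 1.33 in day 3 cKO and 1.01 in control, and that of Ucma 0.177 and 0.409. Matn3 relative to Acan was at 0.00761 to 0.0161 in day 3 control. In cKO it was above every control in the first 3 libraries, at 0.0271 to 0.0304, but at 0.00826 in the fourth, inside the control range. For Chad the ratio was 0.0158 to 0.0218 in control, and 0.0109 to 0.0154 in the first 3 cKO libraries but 0.0852 in the fourth, where Acan was lowest. These ratios are descriptions and were not tested.

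In cartilage taken directly from the mice the fold changes were smaller in size, a contrast with the cultures that was not tested: Hapln1, Matn1 and Matn3 fell, and 0 members were higher by edgeR, by DESeq2 or at an unadjusted p under 0.05. Of the 8793 genes tested, 3.04% were called lower, 3.15% higher and 6.19% in either direction. The members' median log2 fold change was -0.37, against 0.0084 over all genes. The control libraries were all in library pool 1 and the cKO ones in pool 2, so pool and genotype cannot be told apart.

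Hapln1 was at 2432, 2722, 2577 and 1859 CPM in control and at 1718, 1381, 990.2 and 1683 in cKO. The groups did not overlap, though the fourth control and the first cKO library were close, and the fall was 1.66-fold (log2 fold change -0.73, SE 0.183, edgeR adjusted p = 0.027). Matn3 was at 973, 1011, 1084 and 794 CPM against 699, 408, 379 and 729, again without overlap and 1.74-fold lower (log2 fold change -0.80, SE 0.206, edgeR adjusted p = 0.032). Of all genes, 6.4% did not overlap in this direction and 7.12% in the higher. Matn1 was at 2868, 1702, 2947 and 2278 CPM in control and at 1766, 1214, 771 and 1435 in cKO. The first cKO library lay above the second control, and the fall was 1.91-fold (log2 fold change -0.93, SE 0.234, edgeR adjusted p = 0.028). Each of these 3 calls was lost on leaving out any 1 of 5 libraries. For Hapln1 these were control replicates 2 and 3 and cKO replicates 1, 2 and 3 (log2 fold change -0.60 to -0.81, edgeR adjusted p 0.052 to 0.085). For Matn1 they were control replicates 1 and 3 and cKO replicates 2, 3 and 4 (-0.71 to -1.06, adjusted p 0.051 to 0.093). For Matn3 they were control replicates 1, 2 and 3 and cKO replicates 2 and 3 (-0.65 to -0.81, adjusted p 0.064 to 0.090). In the estimated counts that were also deposited for these samples, the same 3 members were called, with log2 fold changes of -0.75, -0.98 and -0.82.

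Aggrecan itself was at 3506, 3689, 3912 and 2956 CPM in control cartilage and at 3209, 2284, 2092 and 2738 in cKO. The groups overlapped, and the difference did not pass (log2 fold change -0.45, SE 0.173, edgeR adjusted p = 0.14). Chad was abundant in this tissue, at 1292, 1283, 1348 and 678 CPM in control, but scattered in cKO at 803, 1639, 262 and 589. Its highest and its lowest library were both cKO (log2 fold change -0.65, SE 0.310, edgeR adjusted p = 0.23), and without the second cKO library it was called (-1.01, adjusted p = 0.033). Comp, Matn2, Matn4, Ucma and Epyc had log2 fold changes from -0.30 to -0.12, none past the test, with edgeR adjusted p-values from 0.42 to 0.72. Matn4 and Ucma turned to 0.071 and 0.025 without the third cKO library, which was the lowest of its group for 8 of the 10 members and had the lowest chondrocyte marker sum of the 8 libraries (27181 CPM). Without it, or without the third control, no member was called. With no filter on low counts Acan (-0.48) and Chad (-0.68) were called as well.

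**Figure D3:**
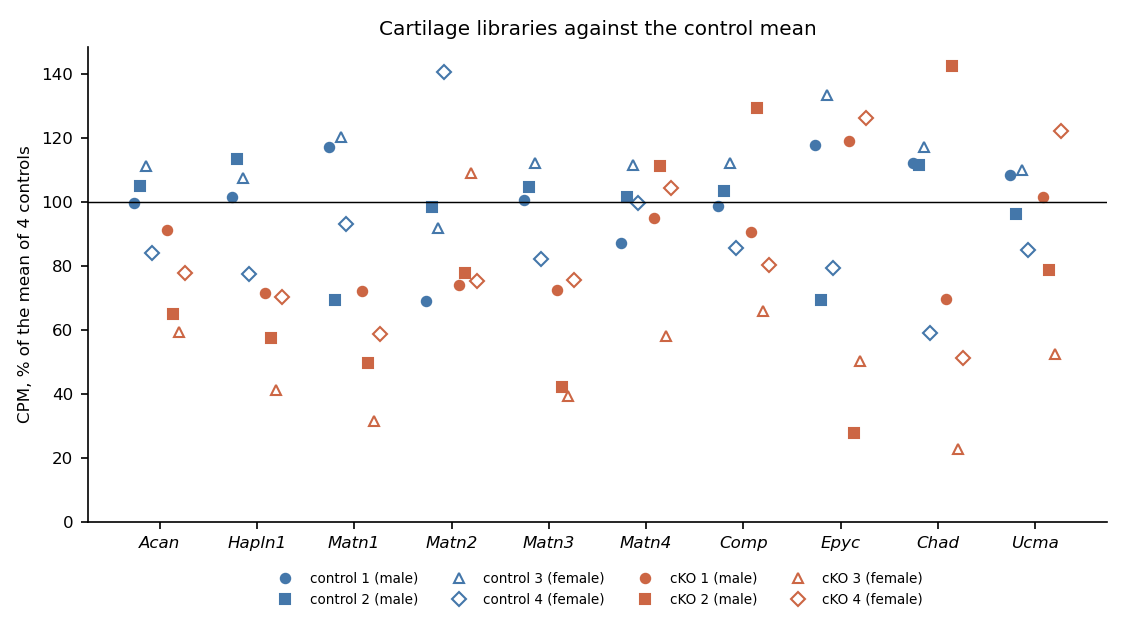
Level of each transcript in the 8 cartilage libraries as a percentage of the mean of the 4 controls, with control in blue, cKO in orange, a symbol for each replicate, and filled symbols for males and open ones for females. Hapln1 and Matn3 are the members with every cKO symbol below every control symbol; the third cKO library (open orange triangles) is at 31.5% for Matn1 and 22.8% for Chad.

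Epyc needs a caution in cartilage: its level in the estimated counts was 4.62 times that in the whole-number counts in control and 4.78 times in cKO, while for the other 9 members this ratio was between 0.796 and 0.882. Whether the genotype effect differed between the sexes was tested as well. No member differed between females and males at an edgeR adjusted p under 0.05 (0.0103% of the 9687 genes tested were called), and Chad alone had an unadjusted p under 0.05. For Chad the effect in females minus that in males was -1.17 on the log2 scale (SE 0.539, edgeR adjusted p = 0.99). Each sex and genotype had 2 libraries, and DESeq2 called 0 members.

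**Figure D4:**
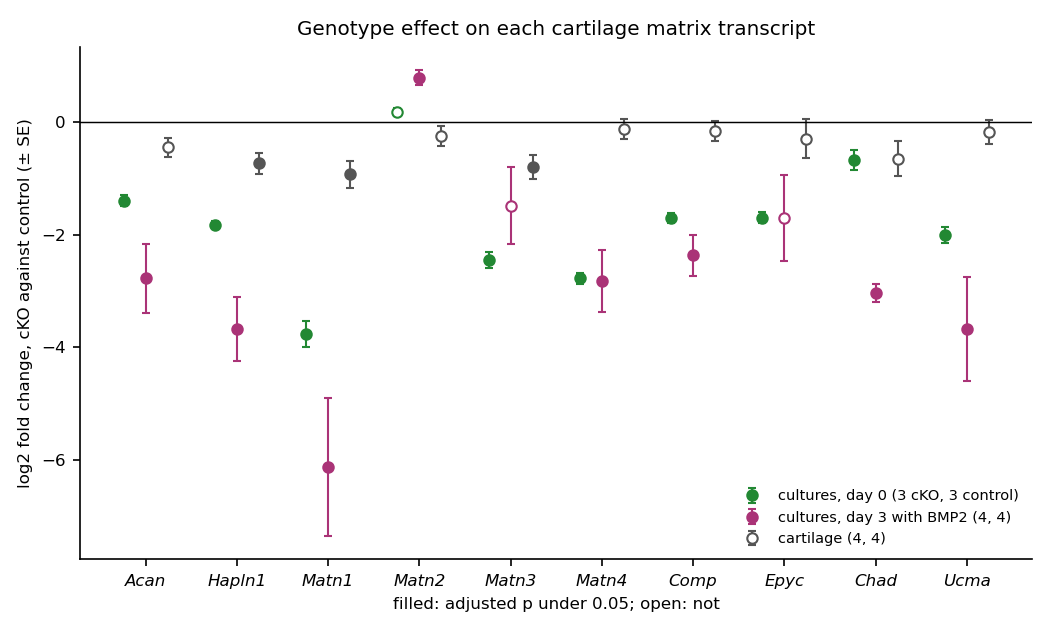
Log2 fold change of cKO against control (± SE) for each transcript at day 0, at day 3 and in cartilage; filled points passed an edgeR adjusted p under 0.05. Matn1 had the lowest value in each of the 3 settings (-3.76, -6.13 and -0.93), and Matn2 was called only at day 3, at 0.79.

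The change from day 0 to day 3 was fitted over all 14 cultures. Day, BMP2 and count table change together, so no one of them can be named as the source of a difference. In control cultures Matn2 and Matn4 rose, Matn3 and Epyc fell, and the other 6 members did not pass the test; of the 14909 genes tested, 28.1% were called higher, 28.8% lower and 56.9% in either direction. In cKO cultures 7 members fell and 2 rose, against 29.8% lower, 32.4% higher and 62.2% in either direction over all genes.

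Matn3 had the steepest change. From 542 to 571 CPM in day 0 controls it went to 23.9 to 45.9 at day 3, a 17.4-fold fall (log2 fold change -4.12, SE 0.576, edgeR adjusted p = 5.5e-05), and in cKO it fell 8.92-fold (-3.16, SE 0.568, adjusted p = 3.5e-04). Matn4 moved the opposite way in both genotypes. It went from 51.9 to 54.28 CPM up to 171 to 301 in control, a 4.62-fold rise (log2 fold change 2.21, SE 0.489, edgeR adjusted p = 0.0018), and rose 4.44-fold in cKO (2.15, SE 0.505, adjusted p = 0.0024). The rise in cKO started from a much lower level: of the 4 day 3 cKO libraries, 1 (64.8 CPM) was above the untreated controls and 3 were below them. Matn2 rose 1.86-fold in control (log2 fold change 0.90, SE 0.129, edgeR adjusted p = 7.1e-05) and 2.81-fold in cKO (1.49, SE 0.131, adjusted p = 1.1e-06). Without the fourth day 3 cKO library the changes in cKO were -2.76 for Matn3, 2.497 for Matn4 and 1.58 for Matn2, all still called.

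Acan, Hapln1, Matn1, Chad and Ucma shared another pattern of calls, with no call in control and a fall in cKO. A call in 1 genotype alone is no test of a difference between genotypes. In the direct test given below, with all libraries kept, only Chad of these members passed. In control the log2 fold changes of these members ran from -0.73 to -0.21, with edgeR adjusted p-values from 0.20 to 0.60. In cKO the log2 fold changes were -1.97 for Acan, -2.56 for Hapln1, -2.92 for Matn1, -2.58 for Chad and -2.41 for Ucma, with adjusted p-values from 4.3e-07 to 0.011. Without the fourth day 3 cKO library they were -1.60, -2.21, -2.51, -2.47 and -2.0004, and that of Epyc -1.28, all called. Without that library, whose spread enters the shared fit, the control changes of Acan, Hapln1 and Ucma were called lower and that of Comp higher, at unmoved sizes (-0.57, -0.71, -0.72 and 0.31). Epyc fell alike in control (-1.66, SE 0.646, adjusted p = 0.043) and cKO (-1.67, SE 0.651, adjusted p = 0.039). Both calls were at the edge: each was lost in 9 of the 14 fits that left out 1 library. These were the fits without any 1 day 0 library and, in control, without day 3 control replicate 2, 3 or 4 (-1.70 to -1.49, adjusted p up to 0.10; in DESeq2 0.055), or, in cKO, without day 3 control replicate 4 or cKO replicate 1 or 2 (-1.81 to -1.54, adjusted p up to 0.098). Comp was called in neither genotype (0.31 and -0.37).

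**Figure D5:**
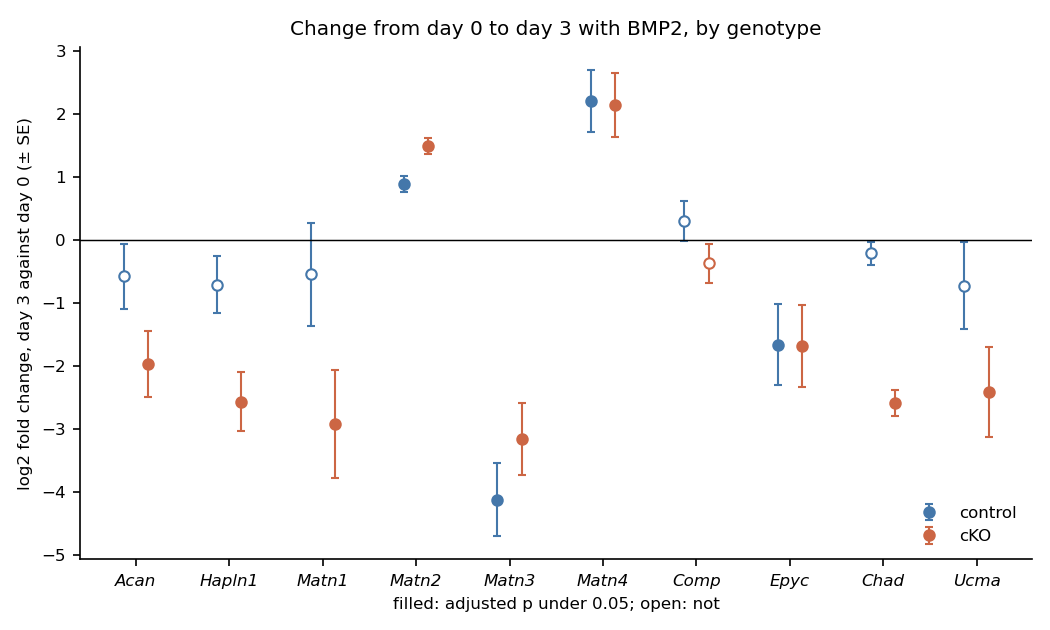
Log2 fold change from day 0 to day 3 (± SE) in control (blue) and cKO (orange) cultures; filled points passed an edgeR adjusted p under 0.05. Chad was at -0.21 in control and -2.58 in cKO, whereas Matn4 (2.21 and 2.15) and Epyc (-1.66 and -1.67) moved alike in both.

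Whether the genotype effect differed between the days was tested directly. Of all 14909 genes 16.8% were called, 6.89% lower and 9.93% higher; of the members, Chad was lower and Matn2 higher. For Chad the genotype effect was 2.38 log2 units lower at day 3 than at day 0 (edgeR log2 difference -2.38, SE 0.275, adjusted p = 2.1e-04), and the call was kept in each of the 14 fits without 1 library (-2.26 without the fourth day 3 cKO library). For Matn2 the difference was 0.60 (SE 0.179, adjusted p = 0.038). That call was lost in 9 of those 14 fits, namely without any 1 of the 6 day 0 libraries, day 3 control replicate 2 or 4 or day 3 cKO replicate 2 (0.51 to 0.65, adjusted p 0.053 to 0.10). Hapln1 (-1.86, adjusted p = 0.070), Matn1 (-2.38, adjusted p = 0.20), Acan (-1.39, adjusted p = 0.22) and Ucma (-1.68, adjusted p = 0.28) did not pass. Without the fourth day 3 cKO library all 4 did (-1.51, -1.97, -1.03 and -1.28), and Matn3 was called higher (1.36, adjusted p = 0.0023). In that fit 5 members were lower and 2 higher. The shares of all genes above are of the fit with that library, and those without it are not given here. Matn4 and Epyc differed by -0.06 and -0.02, with SE of 0.665 and 0.915.

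Other matrix genes of the chondrocyte were read from lists chosen with earlier results of these data known. Of 16 other cartilage matrix genes, 13 fell and 1 rose at day 0, 12 fell and 1 rose at day 3, and 1 fell in cartilage, with median log2 fold changes of -1.94, -3.02 and -0.39. Over all genes tested, 31.6%, 22.6% and 3.04% were called lower in these settings and 33%, 25.5% and 3.15% higher. The 1 call in cartilage is too few to set apart from the share there. Of the 16 genes, those that fell the most at day 0 were Col9a2 (-2.59), Snorc (-2.59) and Mia (-2.59). At day 3 they were Col11a2 (-3.96), Col9a1 (-3.93) and Mia (-3.88). Col9a3 fell in cartilage (-0.83). Col9a and Col11a genes encode chains of the collagens that coat and nucleate collagen II fibrils. The gene that rose at both times was Prg4 (1.46 and 2.63), which encodes lubricin, the lubricant of the joint surface. Among the SOX genes that drive chondrocyte matrix genes, Sox9 and Sox6 fell at day 0 (-0.71 and -0.63), and Sox9, Sox6 and Sox5 at day 3 (-1.45, -1.56 and -0.70); edgeR called 0 of the 3 in cartilage (2 lower at an unadjusted p under 0.05, 0 called by DESeq2). The Sox9 call at day 3 was lost on leaving out any 1 of the 4 controls or the second cKO library (-1.64 to -1.12 over all 8 omissions, edgeR adjusted p up to 0.065).

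Close relatives of the members did not all move with them. Of 11 genes tested in the list of aggrecan relatives, link proteins and hyaluronan genes, Acan and Hapln1 among them, 4 fell and 4 rose at day 0, shares close to the 31.6% and 33% of all genes. Cd44, a hyaluronan receptor, rose at both times (log2 fold changes 2.18 and 2.40), while Hapln4 fell at day 0 (-1.23) and Bcan, brevican, at day 3 (-1.81). Ncan, neurocan, rose at day 0 (0.84), as did Has1, a hyaluronan synthase (0.78). The Has1 call was lost without the third control or the third cKO library (0.63 to 0.87 over all 6 omissions, adjusted p up to 0.084). Has2, another synthase, fell at day 0 (-1.01, edgeR adjusted p = 1.0e-05). Versican, Vcan, rose at both times (0.57 and 1.30), the day 3 call being lost without control replicate 1 or 4 (0.81 to 1.46 over all 8 omissions, adjusted p up to 0.086). At day 3 the list had 3 lower and 2 higher of 9, against 22.6% and 25.5% of all genes. In cartilage it had 1 of each of 7, Hapln1 lower and Has1 higher (0.61, adjusted p = 0.0498), the latter lost without any 1 library (0.48 to 0.71, adjusted p 0.057 to 0.14). Among thrombospondins, Thbs3 fell with Comp in both sets of cultures (-1.54 and -1.90), and Thbs1 rose at day 0 (0.59) and Thbs2 at day 3 (2.89); in cartilage Thbs1 fell (-0.84). Of 13 leucine-rich repeat matrix genes, Epyc and Chad included, 9 fell and 3 rose at day 0, 6 fell and 1 rose at day 3, and edgeR called 0 in cartilage (3 lower at an unadjusted p under 0.05, 0 called by DESeq2). Chadl, the nearest relative of Chad, fell at both times (-2.36 and -3.01) and Prelp rose at both (0.78 and 0.89). Aspn (-1.75 and -1.33) and Ogn (-0.59 and -1.46) fell at both times, and Nyx (1.06) and Omd (0.64) rose at day 0; the day 0 Aspn call was lost without control replicate 1 or 2 or cKO replicate 1 or 3 (-2.22 to -1.03 over all 6 omissions, adjusted p up to 0.17).

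Enzymes that cut these proteins, and their inhibitors, formed a list of 9. At day 0, 3 rose and 3 fell, close to the 33% and 31.6% of all genes. Mmp3, which cleaves aggrecan and link protein, rose (3.07), as did the aggrecanases Adamts4 (1.17) and Adamts5 (1.12), while Adamts7 (-1.40), Adamts1 (-0.50) and Adamts12 (-0.32) fell. The Adamts12 call was lost without control replicate 1 or cKO replicate 1 or 2 (-0.40 to -0.23 over all 6 omissions, adjusted p up to 0.093). At day 3, 6 of 8 rose and 0 fell by either tool, against 25.5% of all genes higher. Mmp3 (3.40), Mmp13 (2.71) and Adamts1 (1.82) were in front. Adamts4 (1.51) and the inhibitor Timp3 (1.15, edgeR adjusted p = 0.041) rose as well, so the count is not of cutting enzymes alone. Adamts12 rose too (1.344), a call lost without any 1 control (0.67 to 1.54 over all 8 omissions, adjusted p up to 0.073). Adamts1 and Adamts12 thus had opposite signs at the 2 times. In cartilage Mmp13, the collagenase of hypertrophic chondrocytes, fell (-2.17), a call lost without cKO replicate 3 or 4 (-3.08 to -1.83 over all 8 omissions, adjusted p up to 0.064). All 6 hypertrophic markers, Mmp13 among them, were called lower there, with sums of 817 to 1582 CPM in control and 169 to 857 in cKO; on leaving out 1 library 2 to 6 were called, 2 without control replicate 2 or cKO replicate 1 or 4, 3 without control replicate 4, and Panx3 (-1.65) each time. Osteoclast marker sums in cartilage were 124 to 452 and 57.9 to 119, and those of blood and endothelium 216 to 1016 and 42.8 to 442. By edgeR 3 of 3 tested osteoclast markers were called lower (3 by DESeq2). For blood and endothelium 4 of 6 were (0 by DESeq2), against 3.04% of all genes. Sums for bone were 28040 to 56169 and 13419 to 33608, and for fibroblast and tendon 30490 to 60792 and 15226 to 37744, overlapping ranges. Col1a1 counts in both sums, so they are not independent. By edgeR and by DESeq2, 0 markers of either list were called in cartilage (2 and 1 lower at an unadjusted p under 0.05). The part of these cell types in the members' levels was not tested.

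Timp3 aside, every pathway gene named above for day 3 was still called in its direction without the fourth day 3 cKO library. The edgeR adjusted p was at most 0.042, that of Vcan, and the value of Timp3 was not read there. Most values were smaller: Col11a2 was at -3.57, Col9a1 at -3.53, Mia at -3.49, Prg4 at 2.22 and Sox9, Sox6 and Sox5 at -1.12, -1.32 and -0.52. Among relatives of the members, Cd44 was at 1.97, Vcan at 0.81, Bcan at -1.82, Thbs3 at -1.64, Thbs2 at 2.66, Chadl at -2.64, Prelp at 0.90, Aspn at -1.103 and Ogn at -1.22. The enzymes Mmp3, Adamts1 and Adamts12 were at 3.29, 1.58 and 0.67. The leucine-rich repeat list then had 8 lower and 3 higher, and the other cartilage matrix genes 13 and 2. Counts for the relatives of aggrecan, the thrombospondins, the SOX genes and the enzymes were as with that library. Shares over all genes without it are not given here.

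Over the 14 cultures the members most alike were Acan, Hapln1, Matn1 and Ucma. Pearson's r of log2(CPM + 1) was 0.992 for Acan with Ucma, 0.989 for Acan with Hapln1 and 0.983 for Acan with Matn1. Matn2 ran against them (r = -0.66 with Acan), and Matn4 (r = 0.50) and Matn3 (r = 0.83) followed Acan less closely. The points share genotype, day and library, so these values describe the 4 groups more than single libraries. Among 9441 genes with a mean of at least 10 CPM, the 3 most like Acan were Xylt1 (0.995), Col2a1 (0.995) and Col9a1 (0.995). Those most like Hapln1 were Col11a1 (0.993), Col11a2 and Acan; most like Matn1 were Col11a2 (0.993), Lpar4 and Vldlr; and most like Ucma were Xylt1 (0.996), Acan and Col2a1. For Comp they were A2m (0.996), Zim1 and Mia, for Epyc Obsl1 (0.986), Dctd and Trpv4, and for Chad B4galnt3 (0.978), Usp29 and Sfswap. Matn2 was most like Lgals3bp (0.987), Megf6 and Tdrd7, Matn3 most like Cops3 (0.987), Ddx49 and Slc16a1, and Matn4 most like Lrrc61 (0.987), Dbi and Reps2.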

How the data were processed

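For the cultures (stranded kit, per the labels' protocols) the authors deposited estimated counts, rounded here to whole numbers; for cartilage (barcoded 3′ method with unique molecular identifiers, per the labels' protocols) they deposited whole-number counts, the main values here, and estimated counts. The submitters' processing notes name HISAT2 2.2.1, featureCounts 2.0.1, UMI-tools 1.1.1 and GRCm38; which applies to which table, and whether strand was used, is not given in the sources used here. Tests were quasi-likelihood tests of edgeR 4.0.16 (R 4.3.3) with TMM and filterByExpr (10 counts, 15 in total), checked on simulated counts. A gene was called at a Benjamini-Hochberg p, adjusted across the whole table, under 0.05. Genotype fits used 1 table each; the cartilage fit included sex. SE is the absolute log2 fold change over the square root of F. Alternatives were DESeq2 1.42.0, other scaling, no filter, a replicate block, leaving out each library, 1 fit of all 14 cultures, no sex term and the estimated cartilage counts. Gene positions and exon lengths came from GENCODE M21 (GRCm38), promoters from RefSeq. Limits from 3 counts cover counting error only. Named genes were the members and the 3 genes most like each member. The 3 largest called falls and rises of each pathway list in each genotype comparison were named too, with Has2 and Timp3 added. Members and lists were chosen with earlier results of these data known.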

Additional observations from a re-analysis of the deposited data

Results flagged for a closer look

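In 40 groups of 4 libraries, 1 member each, the gap between an extreme library and its nearest neighbour was, as a share of the group's range, above Dixon's 95% critical value in 3, where chance flags about 1 in 20. Matn4 was at 171 CPM in the first day 3 control, below 286 to 301 in the other 3. Matn2 was at 148 CPM in the third cartilage cKO library, above 101 to 106 in the others, in the library that was lowest of its group for 8 of the 10 members. Chad was at 678 CPM in the fourth cartilage control, below 1283 to 1348 in the others. The genotype effect at day 3 minus that at day 0 differed from 0 by edgeR's interaction test for Chad (-2.38) and for Matn2 (0.60).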

How the results depend on the processing

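Under the alternatives tried, counts of members called moved as follows. At day 0 the count higher was 0, and 1 (Matn2) with the replicate block; leaving out 1 library it was 0 to 1. In cartilage the count lower was 3, with 5 when no filter was applied (Acan and Chad added) and 0 to 3 on leaving out 1 library. For the change from day 0 to day 3 in control the count lower was 2, with 1 in DESeq2 and 1 with the replicate block (Epyc lost), and 1 to 5 on leaving out 1 library; the count higher was 2 to 3. For the difference between days the count lower was 1, with 2 in DESeq2 (Hapln1 added, -1.85) and 1 to 5 on leaving out 1 library, and the count higher was 0 to 2. For the difference between sexes the count lower was 0, with 1 (Chad, -1.21) when no filter was applied. The cause of these moves was not tested. Leaving out 1 library turned signs for Matn4 (-0.25 to 0.071) and Ucma (-0.47 to 0.025) in cartilage, both without the third cKO library, and for the difference between days of Matn4 (-0.48 to 0.29) and Epyc (-0.36 to 0.38), each in 4 of 14 fits. With all 14 cultures in 1 fit, the day 0 effects of Acan, Epyc and Ucma were not called (adjusted p 0.063, 0.071 and 0.053) and the day 3 effects of Matn3 and Epyc were. In that fit 17 results of members and list genes lost their call, these 3 among them, so calls of list genes above carry the same limit. Scaling by DESeq2's size factors in edgeR changed no member's call. The labels do not say whether replicate numbers pair the libraries. Deviations of same-numbered control and cKO libraries correlated at -0.003, -0.026 and 0.25 at day 0. They correlated at -0.15 to -0.078 at day 3 and at -0.078 to 0.26 in cartilage. Not every library correlated best with its own number, and groups this small cannot decide whether libraries were paired. The block changed no other member's call. Cartilage depth limits low transcripts there: 3 counts were 1.59 to 2.73 CPM.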
